A study of Mus musculus with 8 samples.

Results

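The 9 genes App, Bace1, Psen2, Ncstn, Adam10, Mapt, Apoe, Clu and Sorl1 encode the amyloid precursor protein, enzymes that cut it, tau, and lipid carriers and a sorting receptor tied to Alzheimer disease. They were chosen by gene name, and all 9 were found among the 13996 genes with FPKM values. Their RNA was compared between cortexes of 4 mice on a normal diet (Normal 1 to 4) and 4 mice on a high fat diet (HFD 1 to 4). All mice were male C57BL/6 animals, 16 weeks of age, and received the conventional feed or a feed with 60% fat by weight from 8 weeks of age for 8 weeks. The labels name no transgene or mutant allele in either group. Each library was made from the rRNA-depleted total RNA of 1 mouse. Per the labels, the HFD mice were heavier and handled glucose less well at that age.

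The amyloid precursor protein is a membrane protein that is cut along competing routes. Alpha-secretase cuts inside the amyloid-beta stretch and so prevents the peptide from forming, whereas beta-secretase followed by the gamma-secretase complex releases it. Tau binds microtubules in axons and forms tangles when it is heavily phosphorylated, while apolipoprotein E and clusterin are secreted lipid carriers, made mainly by glia, that bind amyloid-beta.

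Among the 9 genes, Bace1 rose, Psen2 fell, and the other 7 did not pass the test. Bace1 rose by 12.3% and Psen2 fell by 18.6%. FPKM, a fragment count scaled to transcript length and library size, was compared on the log2(FPKM + 0.1) scale with limma, two-sided, and a gene was called at an adjusted p below 0.05. Of 13982 genes tested, 33.1% were called, 17.7% as higher and 15.3% as lower in HFD mice. The 2 called genes are 22.2% of the 9, so the share does not exceed that background. No member was called with a fold of more than 1.5 in either direction, against 7.13% of genes tested. The median log2 fold change was -0.01 over the 9 genes and 0.0031 over all genes tested.

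**Figure D1:**
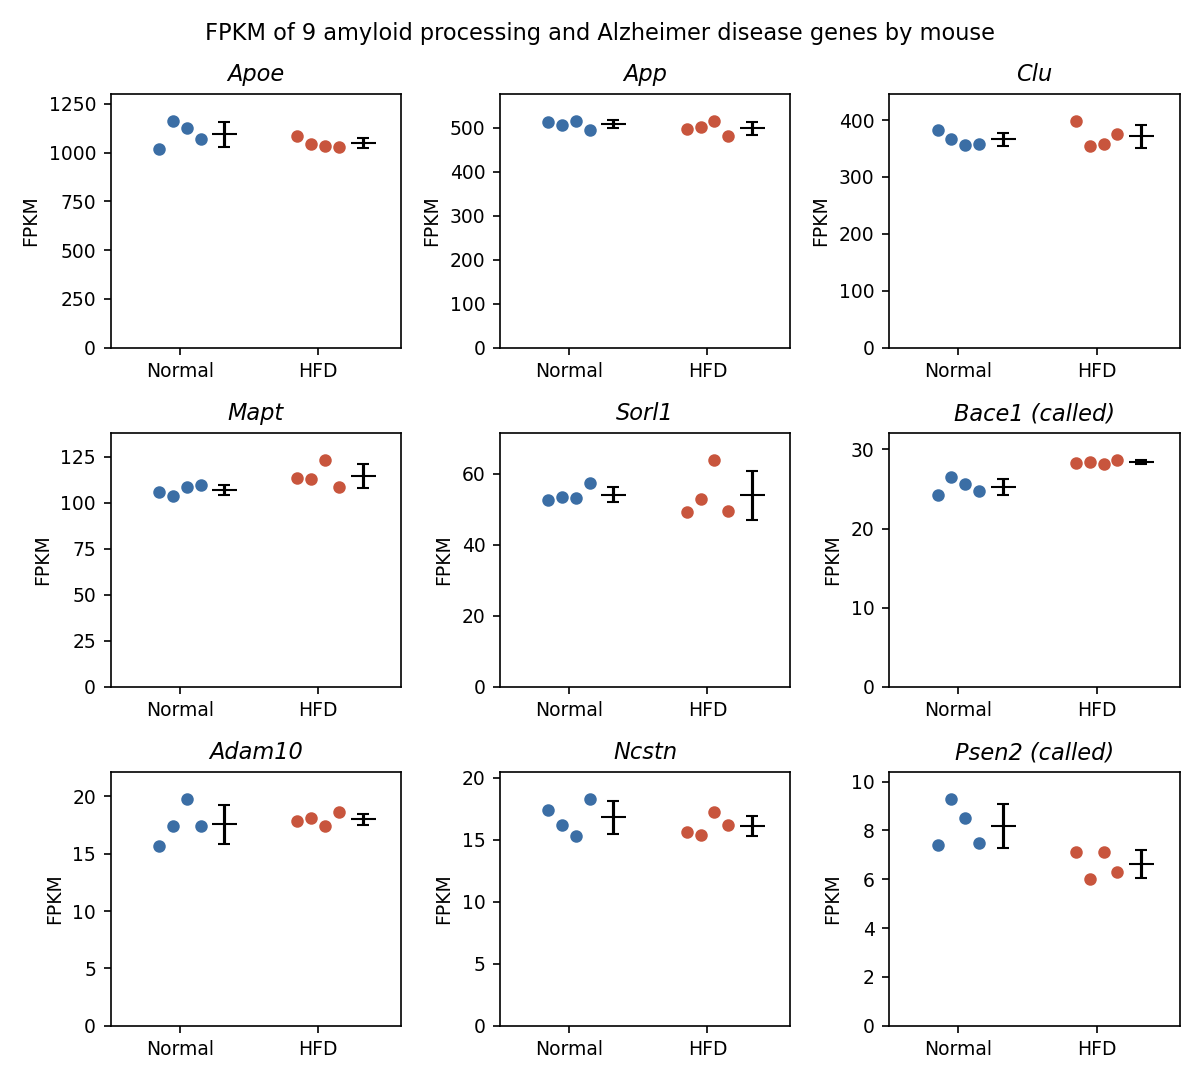
FPKM (y axis, from 0) of each of the 9 genes in Normal mice (blue) and HFD mice (red), with mice 1 to 4 from left to right in each diet and the mean with SD in black (n = 4 per diet). Bace1 and Psen2 are separated between the diets, as are 31.9% of all genes tested, and the values of the other 7 genes overlap.

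The labelled cortex held markers of cortical and of other brain regions, and several lists moved with diet. Markers of cortical excitatory neurons were present in each mouse, with summed FPKM of 619.7 to 913.7 in Normal and 894.2 to 1231.6 in HFD mice, and 6 of 8 rose. All 8 striatal markers tested fell (summed FPKM 214.7 to 395.5 in Normal and 68.6 to 79.4 in HFD mice), and 4 of 6 cerebellar markers fell. The cerebellar sum was 27.8, 264.5, 351.7 and 98.4 in Normal 1 to 4 and 19.7 to 26.4 in HFD mice, with Gabra6 listed at 0 in HFD 1. Of the remaining lists, 10 of 10 oligodendrocyte, 6 of 6 ependymal, 5 of 5 blood, 3 of 7 choroid plexus and 1 of 6 thalamic markers fell. Among astrocyte markers 3 rose and 3 fell of 10, among oligodendrocyte precursor markers 2 rose and 2 fell of 6, among inhibitory neuron markers 1 rose and 4 fell of 6, among endothelial markers 1 rose and 2 fell of 7, and 1 of 9 microglial markers rose. Beside these counts, 17.7% of all genes tested rose and 15.3% fell. In these bulk samples fewer cells of a type and less RNA per cell cannot be told apart.

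The levels of the 9 genes spanned a wide range, and their order was the same by median and by mean FPKM. Because FPKM is scaled to transcript length, the order compares levels between genes. The median FPKM over the 8 mice was 1057.5 for Apoe, 503.45 for App and 362.55 for Clu, which ranked 6, 39 and 66 by mean FPKM among 12531 mRNAs. Mapt followed at 109.15, then Sorl1 at 52.9 and the secretase Bace1 at 27.3. Adam10, Ncstn and Psen2 were lowest, at 17.65, 16.2 and 7.25. Each gene lay above the next in 8 of 8 mice except Adam10, which was higher than Ncstn in 6 of 8 mice with overlapping ranges, so these neighbours did not differ beyond their spread. The precursor RNA was above the RNA of each secretase among the 9 genes in all 8 mice.

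App (ENSMUSG00000022892.11) spans 84949685 to 85173766 of chromosome 16 of GRCm38, on the minus strand. Its FPKM was 513, 505.8, 515.6 and 495.1 in Normal 1 to 4 and 495.7, 501.1, 515.4 and 480.4 in HFD 1 to 4. The groups overlap, and the highest HFD value lies within 1 FPKM of the highest Normal value. App was 507 ± 9.17 (SD, n = 4) in Normal and 498 ± 14.5 (SD, n = 4) in HFD mice. Its log2 fold change was -0.03 (standard error, SE, 0.05, limma adjusted p = 0.689). The 95% interval of the change ran from -8.81% to 5.67%. With this spread a log2 change of 0.14, in either direction, was needed for a call. The values are totals over the App transcripts, so shifts between its splice forms cannot be seen.

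Both relatives of App did change, in opposite directions. Aplp1, an App-like protein of neurons, rose from 262 ± 24.7 to 308 ± 12.2 FPKM (log2 fold change 0.24, limma adjusted p = 0.0284). Aplp2, the widely expressed relative, fell from 159 ± 10.7 to 136 ± 3.79 FPKM (log2 fold change -0.22, limma adjusted p = 0.0129). In every HFD mouse Aplp1 was above, and Aplp2 below, each Normal mouse, a separation seen for 31.9% of genes tested. The ratio of App to Aplp2 ranged from 3 to 3.4 in Normal and from 3.59 to 3.73 in HFD mice, and the ratio of App to Aplp1 from 1.73 to 2.24 and from 1.56 to 1.69. The sum of the 3 RNAs overlapped, at 914.5 to 940.6 in Normal and 922.6 to 981.7 in HFD mice.

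Bace1 encodes the beta-secretase of neurons, the protease that makes the first cut on the amyloid route. The gene (ENSMUSG00000032086.12) spans 45838580 to 45864399 of chromosome 9, on the plus strand. Its FPKM was 24.2, 26.5, 25.6 and 24.8 in Normal 1 to 4 and 28.3, 28.4, 28.1 and 28.7 in HFD 1 to 4. Each HFD mouse lay above each Normal mouse, and the HFD mice were close together. Bace1 rose from 25.3 ± 0.998 to 28.4 ± 0.25 FPKM (SD, n = 4 per diet), a log2 fold change of 0.17 (SE 0.04, limma adjusted p = 0.0156). Non-overlap of the diets was seen for 31.9% of genes tested. The change stayed between 0.15 and 0.19 and kept its call with each mouse left out in turn. Fitted together with the cerebellar marker level (the mean centred log2 value of that list), it had a log2 fold change of 0.25 (standard error 0.06), and the adjusted p of 0.0538 from limma missed the threshold.

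The 3' part of Bace1 shares exonic bases with genes on the opposite strand. The library kit was strand-specific, but the sources used here do not say whether fragments were assigned by strand. Rnf214 shares 975 exonic bases with it (15.4% of the Bace1 exons), Gm49338 shares 951 and Gm16536 shares 135. Their log2 fold changes were 0.07 (adjusted p = 0.286), 0.04 (adjusted p = 0.61) and 0.01 (adjusted p = 0.956), from limma. None of these passed the test. Bace2, the relative of Bace1, was near the lower limit of the values, at 1.32 ± 0.126 FPKM in Normal and 0.925 ± 0.275 in HFD mice (log2 fold change -0.51, limma adjusted p = 0.0887).

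Adam10 encodes the main alpha-secretase of neurons. The gene (ENSMUSG00000054693.14) spans 70678997 to 70780229 of chromosome 9, on the plus strand. Its FPKM was 15.7, 17.4, 19.8 and 17.4 in Normal 1 to 4 and 17.9, 18.1, 17.4 and 18.6 in HFD 1 to 4. All HFD values lay inside the Normal range. The log2 fold change was 0.04 (SE 0.07, limma adjusted p = 0.685), with a 95% interval from -7.56% to 14.1%. Within each mouse, Bace1 was 1.29 to 1.54 times Adam10 in Normal and 1.54 to 1.61 times in HFD mice. HFD 4 had the lowest of the HFD ratios and Normal 1 the highest of the Normal ratios, and these lay next to each other. Of the other alpha-secretases, Adam17 fell from 5.73 ± 0.655 to 3.98 ± 0.126 FPKM (log2 fold change -0.51, limma adjusted p = 0.00332). Its values did not overlap between the diets, as for 31.9% of genes tested. Adam9 was 17.4 ± 0.837 and 16 ± 0.753 (limma adjusted p = 0.115).

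Psen2 encodes presenilin 2, a catalytic subunit of gamma-secretase. The gene (ENSMUSG00000010609.15) spans 180227004 to 180263438 of chromosome 1, on the minus strand. Its FPKM was 7.4, 9.3, 8.5 and 7.5 in Normal 1 to 4 and 7.1, 6, 7.1 and 6.3 in HFD 1 to 4. The diets do not overlap, as for 31.9% of genes tested, but the lowest Normal value lies only 3 rounding steps of 0.1 FPKM above the highest HFD value. Psen2 fell from 8.18 ± 0.9 to 6.63 ± 0.562 FPKM (SD, n = 4 per diet), a log2 fold change of -0.30 (SE 0.09, limma adjusted p = 0.0336). With 1 mouse left out at a time, Psen2 was called in 4 of 8 fits. The call was lost without Normal 2 (log2 fold change -0.23), Normal 3 (-0.28), HFD 2 (-0.25) or HFD 4 (-0.27), at adjusted p of 0.0769 to 0.0926 from limma.

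The Psen2 value moved with the cerebellar markers, and with other marker lists, among Normal mice. Normal 2 and 3 had the highest Psen2 (9.3 and 8.5 FPKM) and the highest cerebellar sums (264.5 and 351.7 FPKM). Of the Normal mice they also had the highest thalamic (125.9 and 110.3 FPKM) and oligodendrocyte sums (3687.6 and 3325 FPKM). Their excitatory neuron sums were the lowest (661.7 and 619.7 FPKM). Which list goes with Psen2 was not tested. Fitted together with the cerebellar marker level, Psen2 had a log2 fold change of -0.11 (SE 0.14, limma adjusted p = 0.68). Without Normal 2 and 3 together, a choice made after seeing the data, it was -0.17 (limma adjusted p = 0.218), while Bace1 was at 0.21 (limma adjusted p = 0.0179). These mice hold the highest Normal values of both genes, so leaving them out had to shrink the fall of Psen2 and enlarge the rise of Bace1, and the values say nothing about the markers. The cerebellar and the striatal marker levels each separated the diets completely, so neither fit can tell its markers apart from diet. The lowest Normal cerebellar level was -0.798 (Normal 1) and the highest HFD level -1.17 (HFD 4). Standard errors grew to 0.06 for Bace1 and 0.14 for Psen2 in the cerebellar fit. In the striatal fit they grew to 0.23 for Bace1 and 0.49 for Psen2.

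**Figure D2:**
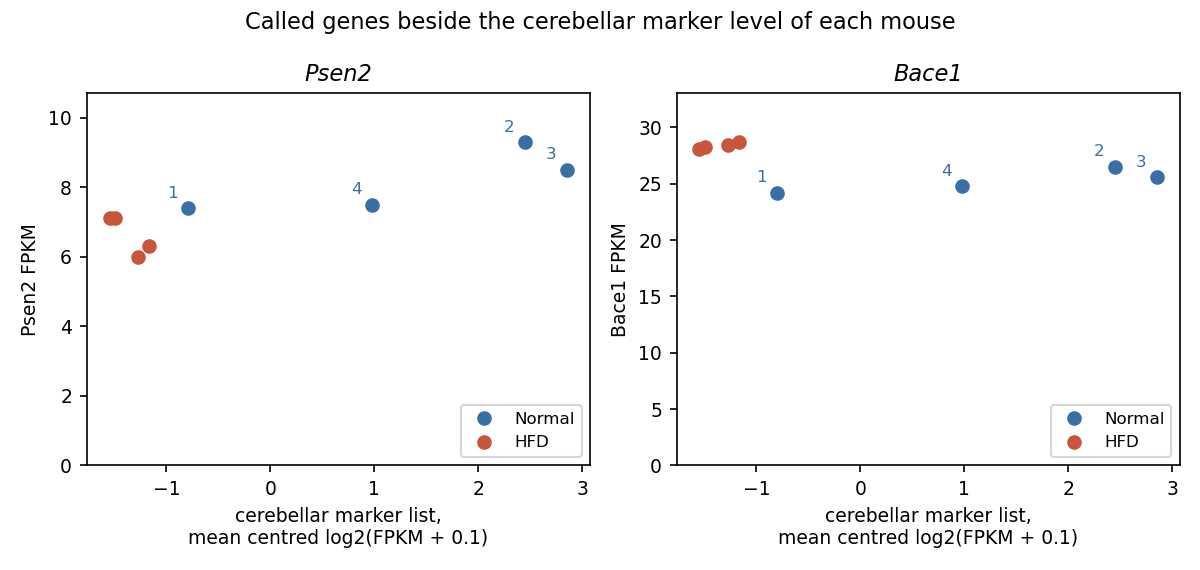
FPKM of Psen2 and Bace1 (y axes, from 0) against the mean centred log2(FPKM + 0.1) of the cerebellar marker list (x axis) in Normal mice (blue, numbered) and HFD mice (red). Normal 2 and 3, at 2.45 and 2.85 on the x axis, have the highest Psen2, and Bace1 in all 4 Normal mice lies below that of the HFD mice.

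Ncstn encodes nicastrin, a large glycoprotein subunit of gamma-secretase. The gene (ENSMUSG00000003458.12) spans 172066013 to 172082795 of chromosome 1, on the minus strand. Its FPKM was 17.4, 16.2, 15.3 and 18.3 in Normal 1 to 4 and 15.6, 15.4, 17.2 and 16.2 in HFD 1 to 4. The HFD values lay inside the Normal range, and the log2 fold change was -0.06 (SE 0.07, limma adjusted p = 0.514). Ncstn shares 195 exonic bases, at its 5' end, with Copa on the opposite strand, whose log2 fold change was 0.06 (limma adjusted p = 0.234).

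Of the 7 gamma-secretase subunits tested, 2 fell, 1 rose and 4 did not pass, beside 33.1% called of all genes tested. Besides Psen2, the scaffold subunit Aph1a, named after its values were seen, fell from 9 ± 0.245 to 7.75 ± 0.311 FPKM (log2 fold change -0.21, limma adjusted p = 0.0155). Its values did not overlap between the diets, as for 31.9% of genes tested. Aph1c rose from 1.43 ± 0.263 to 1.95 ± 0.129 FPKM (log2 fold change 0.44, limma adjusted p = 0.0386) with 1 value shared by the diets. Aph1b and Aph1c are near-identical mouse copies among which fragments could be split, so their values are uncertain.

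**Figure D3:**
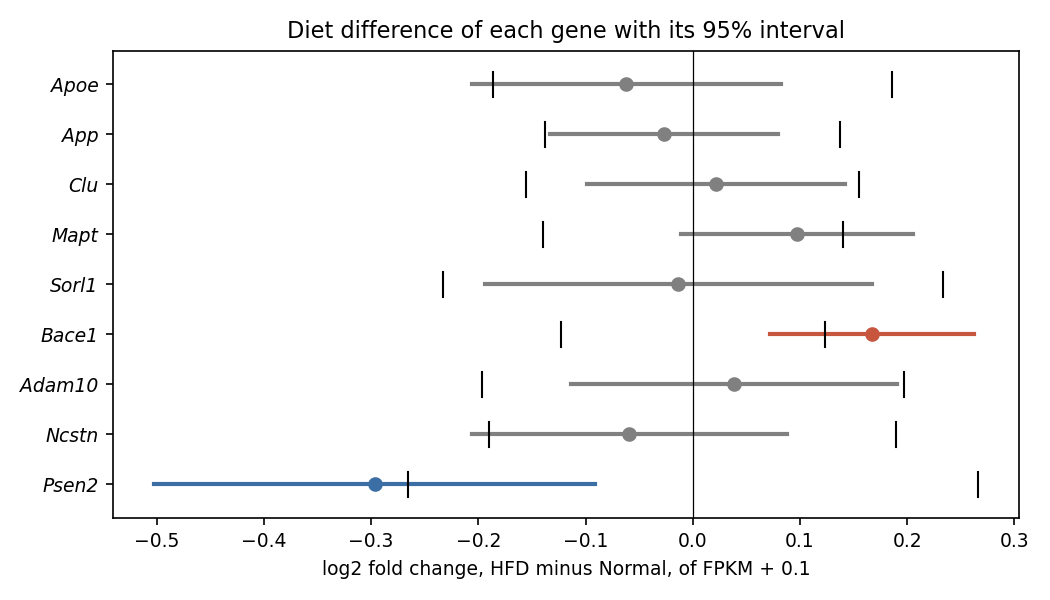
Log2 fold change of each gene, HFD minus Normal, on the FPKM + 0.1 scale (x axis) with its 95% interval (line), in order of level. Red is a called rise, blue a called fall and grey not called, and the black ticks mark the size of change that would have been called at that gene's spread, 0.14 for App and 0.27 for Psen2.

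Mapt encodes tau. The gene (ENSMUSG00000018411.17) spans 104231390 to 104332090 of chromosome 11, on the plus strand. Its FPKM was 106.2, 103.8, 108.5 and 109.8 in Normal 1 to 4 and 113.4, 113.2, 123.5 and 108.5 in HFD 1 to 4. Except for HFD 4, the HFD mice lay above all Normal mice. The log2 fold change was 0.10 (SE 0.05, limma adjusted p = 0.148), with a 95% interval from -0.755% to 15.3%, so no difference was shown. HFD 3, the highest for Mapt, also had the highest sum of excitatory neuron markers, 1231.6 FPKM, and the part of these cells in the Mapt value was not tested.

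Of 5 microtubule-associated proteins, Map1a and Map1b rose and Mapt, Map2 and Map4 did not pass. Map1a, which stabilises dendritic microtubules, rose from 94.8 ± 8.85 to 124 ± 11.3 FPKM (log2 fold change 0.39, limma adjusted p = 0.00639). Of 14 genes of tau kinases and kinase activators, 7 rose, 1 fell and 6 did not pass, with a median log2 fold change of 0.17. The rises include Cdk5r1 and Cdk5r2, which encode activators of the kinase Cdk5 and are not kinases. Cdk5 itself did not pass (log2 fold change -0.07, limma adjusted p = 0.353). Of all genes tested, 17.7% rose and 15.3% fell. With the cerebellar marker level in the fit, 4 of the 96 genes of all lists were called, beside 685 of all 13982 genes tested. The largest rise was that of Mark2, a kinase that releases tau from microtubules, from 15.7 ± 2.02 to 23.3 ± 2.17 FPKM (log2 fold change 0.57, limma adjusted p = 0.00302). The fall was that of Fyn, a tyrosine kinase, from 45.5 ± 1.26 to 39.8 ± 2.07 FPKM (log2 fold change -0.19, limma adjusted p = 0.0147). Of 7 genes of tau dephosphorylation, 2 fell and 5 did not pass. Ppp2ca, the catalytic subunit of protein phosphatase 2A, fell from 55.4 ± 1.28 to 46.8 ± 0.359 FPKM (log2 fold change -0.24, limma adjusted p = 0.00178). Excitatory neuron markers rose over the same mice, and their part in the values of the kinases and activators was not tested.

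Apoe encodes apolipoprotein E. The gene (ENSMUSG00000002985.16) spans 19696109 to 19699188 of chromosome 7, on the minus strand. Its FPKM was 1018.8, 1164.1, 1129.2 and 1071.2 in Normal 1 to 4 and 1088.1, 1043.8, 1032.5 and 1030.7 in HFD 1 to 4. The lowest and the highest values both belong to Normal mice. The log2 fold change was -0.06 (SE 0.06, limma adjusted p = 0.485), with a 95% interval from -13.3% to 5.86%, and its sign changed with quantile normalization. Summed astrocyte markers were 1276.9, 1407.3, 1422.4 and 1283.9 in Normal 1 to 4 and 1351.5, 1275.4, 1288 and 1279.9 in HFD 1 to 4. The 3 mice with the most Apoe, Normal 2, Normal 3 and HFD 1, also had the highest astrocyte sums, a relation whose part was not tested. The single markers did not all follow the sums. Aldoc, the largest, was highest in Normal 2 and 3 (596.5 and 594.5 FPKM). Slc1a2, the next, was lowest in the same mice (303.8 and 303.4 FPKM).

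Clu encodes clusterin, an extracellular chaperone. The gene (ENSMUSG00000022037.15) spans 65968483 to 65981547 of chromosome 14, on the plus strand. Its FPKM was 382.3, 366.6, 356.8 and 358.3 in Normal 1 to 4 and 398.8, 354.8, 358.5 and 375.1 in HFD 1 to 4. The HFD mice spanned the whole Normal range. The log2 fold change was 0.02 (SE 0.05, limma adjusted p = 0.78), with a 95% interval from -6.6% to 10.3%. Clu is also made by choroid plexus and ependyma. The sum of choroid plexus markers was 79.7, 23.3, 29.2 and 952 FPKM in HFD 1 to 4, and the part of these cells in the Clu value was not tested.

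Sorl1 encodes a sorting receptor that carries the amyloid precursor protein away from the compartments where it is cut. The gene (ENSMUSG00000049313.8) spans 41964720 to 42124297 of chromosome 9, on the minus strand. Its FPKM was 52.5, 53.5, 53 and 57.4 in Normal 1 to 4 and 49.2, 52.8, 63.9 and 49.6 in HFD 1 to 4. HFD 3 was the highest of all mice and HFD 1 the lowest, so the HFD group spread on both sides of the Normal group. The log2 fold change was -0.01 (SE 0.08, limma adjusted p = 0.913). A log2 change of 0.23 was needed for a call, the widest limit of the 9 genes after the 0.27 of Psen2.

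The spread within diets set what could be seen for the 9 genes. The coefficient of variation had a median of 4.14% in Normal and 5.02% in HFD mice over the 9 genes, against 8.45% and 7.08% over all genes tested. The highest mouse exceeded the lowest by a factor of 1.07 for App and 1.55 for Psen2, the extremes of the set. Normal mice varied more than HFD mice for Apoe, Bace1, Adam10, Ncstn and Psen2, and less for App, Clu, Mapt and Sorl1.

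By the rule of the smallest root mean square difference of centred log2 values over the 8 mice, the genes most like Bace1 were Fip1l1 (0.0173), Zfp629 (0.0267) and Zfp236 (0.0294). Fip1l1 ranged from 22.3 to 24.5 FPKM in Normal and from 25.7 to 26.7 in HFD mice. The genes most like Psen2 were Anxa5 (0.0421), Hist1h4h (0.0475) and Slc25a33 (0.056). Anxa5 was also highest in Normal 2 and 3, at 33.2 and 32 FPKM, against 26.2 and 26.8 in Normal 1 and 4. Both sets were picked for this likeness, which is a description only.

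The 9 genes were set beside 12 lists of amyloid, tau and risk genes, 7 of which hold them, and 96 of the 104 listed genes were tested. Of these, 20 rose, 21 fell and the rest did not pass, which is 42.7% called beside the 33.1% of all genes tested, with a median log2 fold change of -0.02. Without the 9 genes, 39 of 87 were called (44.8%). The counts depend on the fit, with 25 called under a replicate block, 23 without Normal 2 and 3, and 4 with the cerebellar covariate. Over all 13982 genes tested the same fits called 3390, 2743 and 685, so the drop was not particular to the lists. Called folds over 1.5 in either direction were found for 5 of the 96, and none of these is among the 9 genes.

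Among the amyloid-beta degrading enzymes, 3 fell, 1 rose and 4 did not pass, beside 33.1% called of all genes tested. Mme encodes neprilysin, an amyloid-beta degrading protease of the cell surface. Its FPKM was 3, 2.9, 2.8 and 2.1 in Normal 1 to 4 and 1.8, 1.6, 1.3 and 1.6 in HFD 1 to 4. Each HFD mouse was below each Normal mouse, a separation seen for 31.9% of genes tested. The log2 fold change was -0.74 (SE 0.15, limma adjusted p = 0.00531), at a low level where rounding matters. Thop1, a cytosolic peptidase, rose from 16.6 ± 0.31 to 18.8 ± 1.28 FPKM (log2 fold change 0.17, limma adjusted p = 0.0396). The lysosomal proteases Ctsb and Ctsd were the other falls.

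Of 10 apolipoproteins, receptors and lipid transporters, 3 fell, 2 rose and 5, Apoe and Clu among them, did not pass. Over all genes tested, 33.1% were called. The falls took in Vldlr (log2 fold change -0.34, limma adjusted p = 0.00575) and the lipid exporter Abca1 (log2 fold change -0.47, limma adjusted p = 0.00145). Lrp1, a large receptor that clears amyloid-beta, rose from 51.5 ± 2.87 to 61.7 ± 3.32 FPKM (log2 fold change 0.26, limma adjusted p = 0.00724).

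Among 18 sorting factors and adaptors of the amyloid precursor protein tested, 3 rose, 3 fell and 12, Sorl1 included, did not pass. The share called is near the 33.1% of all genes tested. Apba1, a neuronal adaptor that binds its cytoplasmic tail, was 31.7, 31, 30.3 and 33.7 FPKM in Normal 1 to 4 and 45.6, 47.5, 45.8 and 40.8 in HFD 1 to 4. The gap between the diets was wider than the spread of either, a log2 fold change of 0.50 (SE 0.06, limma adjusted p = 0.000768). Vps29, a subunit of the retromer that works with Sorl1, fell from 64.3 ± 4.47 to 49.4 ± 1.38 FPKM (log2 fold change -0.38, limma adjusted p = 0.00143). The retromer subunit Vps26a also fell (log2 fold change -0.25, limma adjusted p = 0.0132), whereas Vps35 did not pass (log2 fold change -0.08, limma adjusted p = 0.32).

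Of 13 risk genes outside microglia 4 fell, 2 rose and 7 did not pass, beside 33.1% called of all genes tested. Slc24a4, a sodium, potassium and calcium exchanger, rose from 6.73 ± 1.02 to 11.6 ± 0.804 FPKM (log2 fold change 0.79, limma adjusted p = 0.00112). The secreted proteases Adamts4 (9.88 ± 1.98 to 5.58 ± 0.922 FPKM) and Adamts1 (5.23 ± 0.574 to 3.33 ± 0.222 FPKM) fell, at log2 fold changes of -0.80 and -0.63 (limma adjusted p = 0.00517 and 0.00184). Adamts4 is made by oligodendrocytes, whose markers fell in 10 of 10 cases, and the part of these cells in the Adamts4 value was not tested. Of 6 microglial risk genes, Tmem106b, a lysosomal membrane protein also made by neurons, fell from 43.4 ± 0.841 to 35.7 ± 2.34 FPKM (log2 fold change -0.28, limma adjusted p = 0.00405), and the other 5, Trem2 and Tyrobp among them, did not pass.

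**Figure D4:**
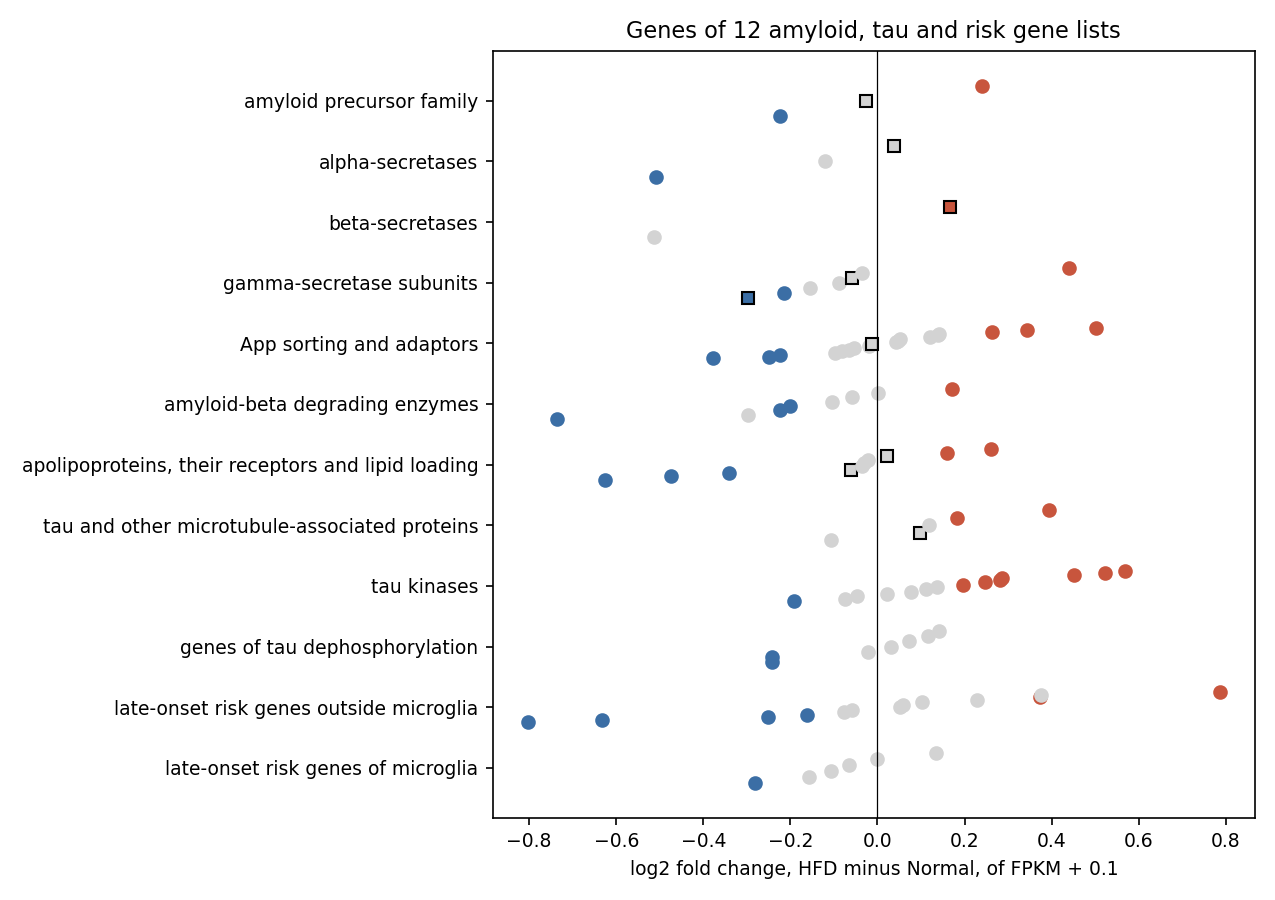
Log2 fold change, HFD minus Normal, on the FPKM + 0.1 scale (x axis) of the 96 tested genes of 12 lists (rows). Red is a called rise, blue a called fall, grey not called, and squares with a black edge are the 9 genes, of which Bace1 and Psen2 are coloured, while called genes lie on both sides of 0 in most lists.

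The genes also differ in position and in promoter sequence, which the choice by name did not use. Bace1, Adam10 and Sorl1 lie on chromosome 9, and Psen2 and Ncstn on chromosome 1. In the GENCODE annotation the genes extend over 3080 bp (Apoe) to 224082 bp (App), and their exon bases together over 2138 bases (Apoe) to 12996 (App). RefSeq promoter windows (GRCm38.p6, the 250 bases before a start) were matched for 6 of the 9 genes. At the RefSeq start furthest upstream, which for Psen2 lies inside the longer GENCODE gene, their GC content ran from 57.2% for Apoe to 74% for Adam10, beside a median of 52.4% over all 32851 windows. None of these 6 windows held TATAAA on the gene's strand, a motif in 7.59% of all windows. The GC box GGGCGG, sought on both strands with overlaps allowed, was found 3 times for Adam10, 2 times for Psen2, 1 time each for App and Sorl1 and 0 times for Ncstn and Apoe. It is found in 32.7% of all windows, and 3 times or more in 8.47%.

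The windows of Psen2, which fell, and Adam10, which did not pass, are shown because they hold the most GC boxes of the 6 genes. Both are written 5' to 3' on the gene's strand with the GC boxes in capitals. The Psen2 window is chr1:180256301-180256550 (minus strand) and the Adam10 window chr9:70678732-70678981 (plus strand), and neither holds an annotated exon of its gene.
Psen2: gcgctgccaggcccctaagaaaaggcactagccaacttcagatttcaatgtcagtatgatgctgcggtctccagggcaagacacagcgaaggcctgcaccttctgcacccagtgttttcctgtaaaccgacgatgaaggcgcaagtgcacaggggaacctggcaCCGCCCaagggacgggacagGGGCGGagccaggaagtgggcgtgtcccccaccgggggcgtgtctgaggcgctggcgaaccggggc
Adam10: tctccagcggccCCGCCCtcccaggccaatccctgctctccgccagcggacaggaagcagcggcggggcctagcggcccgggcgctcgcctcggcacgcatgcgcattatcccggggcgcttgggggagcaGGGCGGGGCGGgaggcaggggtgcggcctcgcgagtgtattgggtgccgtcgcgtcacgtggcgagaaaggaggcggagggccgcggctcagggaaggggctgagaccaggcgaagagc
A match is only a run of letters in a window, and no binding was measured.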

How the data were processed

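RNA sequencing of rRNA-depleted cortex RNA gave 1 library for each of 8 mice. Per the paper's methods and the labels, the authors trimmed reads with Trimmomatic after FastQC, aligned them to mm10 with STAR and computed FPKM with Cuffnorm on GENCODE M17 (GRCm38.p6). A parallel Salmon and edgeR pipeline of the authors is not used here. Versions of these tools: not given in the sources used here. FPKM values as deposited have 1 decimal and sum to 562431 to 639142 per mouse, so the depth, and with it any counting interval, is unknown. Correlations of log2 values were 0.981 to 0.992 within and 0.96 to 0.982 between diets, and no libraries were identical.

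The 13982 of 13996 genes whose mean FPKM reached 1 with a 0 in no mouse were fitted as log2(FPKM + 0.1) with limma 3.58.1 (R 4.3.3, variance trend, 2 diets of 4 mice) and adjusted by Benjamini-Hochberg over all of them. Fold changes are on that scale, which understates changes of low genes. The procedure was tested on simulated data. Per the paper's methods the replicates are separate mice, and p-values measure the spread between these mice. Tables and figures used Python 3.11.15, pandas 2.3.3, scipy 1.17.1 and matplotlib 3.10.9. Coordinates come from GENCODE M21 (GRCm38), later than M17. The 9 genes, 12 gene lists and 13 marker lists were chosen with earlier results of these data known. Beside the 9 genes, the text names by rule the called genes of each list that changed over 1.5-fold, the largest called rise and fall, and the 3 genes most like each called member. For marker lists the rule takes the 2 genes of highest mean and any gene at 0. Of these, only the 2 astrocyte genes and the gene at 0 are named, and the lists are given as counts and sums. Other genes were named after their values were seen. Alternatives were other constants, filters, scalings, variance models, marker covariates, a replicate block and leaving out mice. The smallest callable change is the limma standard error times the t quantile at the largest called p. Some genes of the lists are not reported here by name.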

Additional observations from a re-analysis of the deposited data

How the results depend on the processing

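Other added constants, filters, scalings and the fit without a variance trend kept the calls of Bace1 and Psen2 and left 2 members called, with 35 to 41 of the pathway genes called. With the replicate number as a replicate block, 0 members were called by limma (2 at an unadjusted p below 0.05). Bace1 was at 0.17 (limma adjusted p = 0.0529) and Psen2 at -0.30 (limma adjusted p = 0.0739). That fit called 25 pathway genes, beside 3390 of all 13982 genes tested. Deviations of mice with the same number correlated at -0.109 to -0.0275, and no mouse correlated best with its own number, so the numbers do not pair the mice. The cerebellar covariate left 0 members and 4 pathway genes called by limma, beside 685 of all genes tested. The 2 members at an unadjusted p below 0.05 in that fit were Bace1 and Adam10, not Psen2. Adam10 was at 0.24 there (SE 0.08, limma adjusted p = 0.109). The striatal covariate left 0 members (0 at an unadjusted limma p below 0.05) and 0 pathway genes (1 at an unadjusted limma p below 0.05). It left 0 of all genes tested. Leaving out Normal 2 and 3 left 1 member and 23 pathway genes, beside 2743 of all genes tested. A minimum fold of 1.5 left 0 and 5, beside 997 of all genes tested. With each mouse left out, 1 to 2 members and 29 to 39 pathway genes were called, beside 3295 to 4619 of all genes tested.

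Some values near 0 changed sign. App was at 0.043 with quantile normalization and 0.074 with the striatal covariate, and Apoe at 0.13 with quantile normalization, 0.067 with the cerebellar covariate and 0.0053 without Normal 2 and 3. Clu was at -0.039 with the cerebellar covariate. Adam10 was at -0.285 and Mapt at -0.078 with the striatal covariate. With each mouse left out, Adam10 ran from -0.014 to 0.097, Clu from -0.013 to 0.044 and Sorl1 from -0.098 to 0.027. The cause of these changes was not tested. Rounding to 0.1 FPKM limits genes near 1 FPKM, such as Bace2 and Aph1c.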
